A study of Mus musculus with 2 samples.

Results

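DNA replication and S phase genes, the genes whose products license replication origins, build and run the replication fork, supply nucleotides and reassemble chromatin behind the fork, were compared between mouse small intestinal organoids grown in type I collagen and in Matrigel. The 38 genes were chosen by function from 37172 genes in the expression table: 10 for origin licensing, 5 for origin firing, 11 for the fork, 3 for nucleotide supply, 5 for chromatin assembly and 4 for the S phase checkpoint and repair. Organoids are miniature epithelia that grow from intestinal crypts in a gel. The series sets cystic spheres in collagen against the standard budding organoids in Matrigel, both from C57BL/6 wild-type mice and both taken on day 4.

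Collagen cultures were fed ENRW, which is EGF (50 ng/mL), Noggin (100 ng/mL) and R-spondin1 (400 ng/mL) with added Wnt3a (100 ng/mL), nicotinamide (10 mM) and bovine serum albumin (1%), and were released with collagenase (0.5 mg/mL). Matrigel cultures were fed ENR, the same medium without Wnt3a, nicotinamide and the albumin, and were released with Cell Recovery Solution. Matrix, medium and release method therefore cannot be told apart. Cells of both cultures were hashtagged through an EpCAM antibody, pooled and captured together in 1 library, and the data held 1 cell suspension per culture. No value has a replicate check, no test was run, and each interval below covers counting error only, at the 95% level.

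Before S phase, the origin recognition complex, CDC6 and CDT1 load the ring-shaped MCM helicase onto DNA. CDC45 and the GINS complex then switch the helicase on, and polymerases, the PCNA clamp and its RFC loader copy the strands. Many of these genes are E2F targets that are transcribed from late G1 into S phase, while Mki67 and Top2a, the genes used here to mark cycling cells, peak later, in G2 and mitosis. In the intestine, division is known to be concentrated in the crypt, where Lgr5 stem cells and transit-amplifying cells lie.

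After filtering, 336 collagen cells and 1599 Matrigel cells remained, with a median of 124619 counts per collagen cell and 179044 counts per Matrigel cell. Levels below are CPM, the counts of a gene per 1000000 of the counts summed over a culture's cells, a scale that is not per length, so levels are compared between cultures and not between genes. The epithelial markers Epcam, Cdh1, Krt8, Krt18, Vil1 and Cldn7 summed to 7020 CPM in collagen and 3859 CPM in Matrigel cells. Krt8 made up 2972 CPM of this in collagen and 1232 CPM in Matrigel, and 99.2% of its nonzero values were fractional, so its level is uncertain. Markers of other cell types were near 0: the 5 fibroblast markers summed to 1.02 CPM in collagen and 0.939 CPM in Matrigel cells, the 3 immune markers to 0.949 CPM in collagen and 0.925 CPM in Matrigel, and the 3 endothelial markers to 1.69 CPM in collagen and 1.49 CPM in Matrigel.

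Promoter sequence is shown for 4 of the genes to show what the E2F words searched look like in place: Mcm5, Mcm6 and Dtl hold such words, and Tyms does not. The 180 bases before each RefSeq start on GRCm38.p6 follow, 5′ to 3′ on the gene's strand, with capitals marking the E2F words TTTGGCGC, TTTCCCGC, TTTGCCGC and TTTCGCGC, searched on both strands and allowed to overlap one another. Mcm5 lies at chr8:75109329-75109508 (plus strand), Mcm6 at chr1:128359706-128359885 (minus strand), Dtl at chr1:191575545-191575724 (minus strand) and Tyms at chr5:30073626-30073805 (minus strand).
Mcm5: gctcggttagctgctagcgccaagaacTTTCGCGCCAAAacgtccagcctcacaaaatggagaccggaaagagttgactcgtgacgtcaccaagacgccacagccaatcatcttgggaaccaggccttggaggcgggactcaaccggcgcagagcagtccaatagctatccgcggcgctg
Mcm6: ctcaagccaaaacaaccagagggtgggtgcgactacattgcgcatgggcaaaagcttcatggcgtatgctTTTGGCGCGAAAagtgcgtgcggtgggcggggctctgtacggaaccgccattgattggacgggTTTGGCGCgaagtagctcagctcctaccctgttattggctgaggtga
Dtl: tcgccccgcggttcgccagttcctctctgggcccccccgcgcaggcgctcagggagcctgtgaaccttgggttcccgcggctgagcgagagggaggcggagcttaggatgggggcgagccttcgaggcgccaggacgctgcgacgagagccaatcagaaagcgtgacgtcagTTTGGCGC
Tyms: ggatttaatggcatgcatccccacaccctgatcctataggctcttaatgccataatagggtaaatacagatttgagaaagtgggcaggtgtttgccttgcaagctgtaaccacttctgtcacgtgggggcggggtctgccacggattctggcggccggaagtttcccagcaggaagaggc
Mcm5 held overlapping words that began 153 and 149 bases before its start, Mcm6 held words at 110, 106 and 47 bases, Dtl held a word at 8 bases, and these letters were not found in the Tyms window. Over the 250 bases before the start, 11 of the 33 genes with an entry held an E2F word (33.3%), against 2.16% of 27025 genes. These were Orc1, Cdc6, Mcm5, Mcm6, Mcm7, Gins3, Pola1, Rfc3, Hells, Uhrf1 and Dtl. Among the genes with a word, the log2 ratios given below ran from -2.66 for Uhrf1 to -0.93 for Gins3. Among the genes with an entry and no word, they ran from -2.73 for Ung to -0.52 for Tyms. Whether the words bear on the ratios was not tested. The word CCAAT was found for 21 of the 33 genes (63.6%), against 37.5% of genes. A match describes the letters only. Promoters of Mcm4, Gins1, Gins2, Pole and Rfc2 were not analysed here.

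Replication genes were lower in collagen cells across every function. They summed to 831 CPM (823 to 840) in collagen cells and 2457 CPM (2452 to 2463) in Matrigel cells. Of the 38 genes, 34 were at least 2-fold lower in collagen, against 7.77% of the 10088 genes with a mean of at least 5 CPM, and none was at least 2-fold higher, against 7.7% of those genes. All 38 log2 ratios of collagen over Matrigel, computed with 1 CPM added to each side, were below 0, against 5131 of the 10088 genes. The median of the 38 ratios was -1.59, against a median of -0.01 over all genes tested. All but Orc1 reached the mean of 5 CPM, and the counts given are over all 38.

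**Figure D1:**
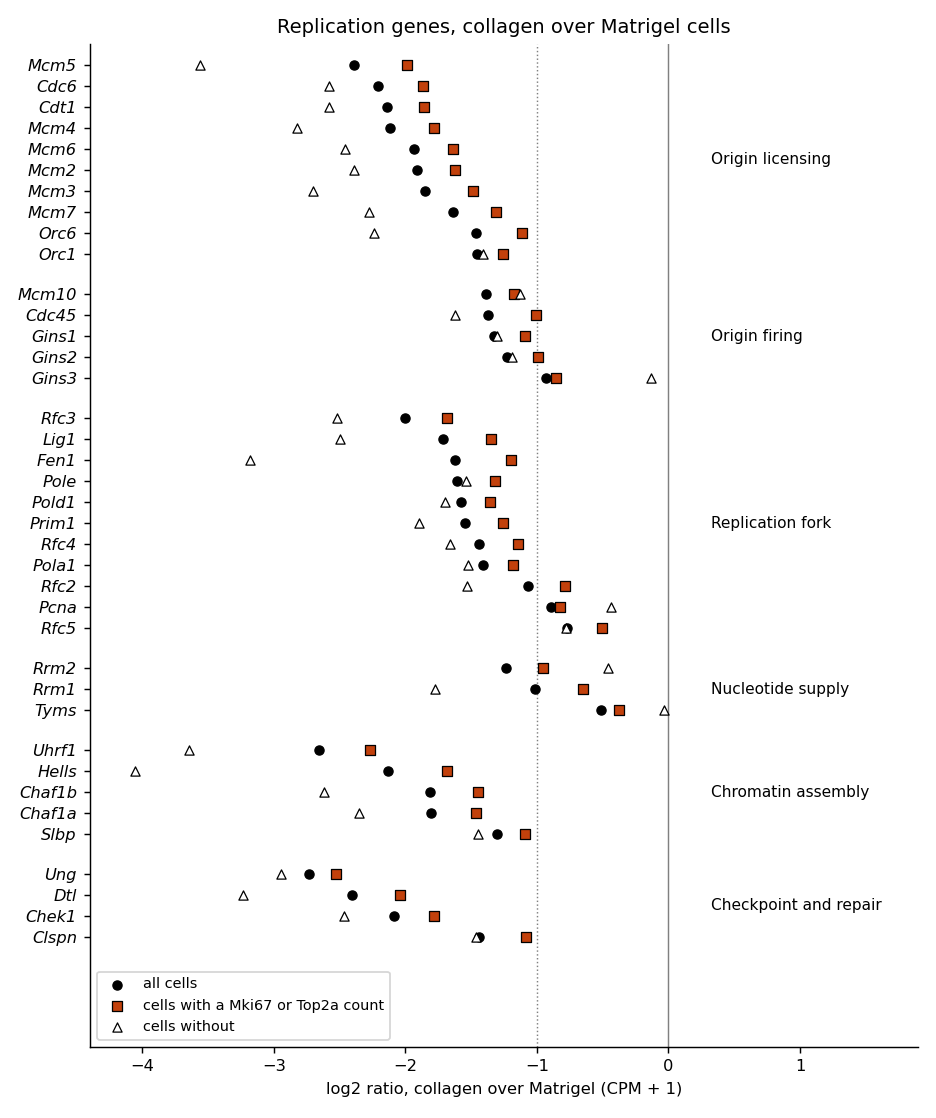
Log2 ratio of collagen over Matrigel CPM, with 1 CPM added, for the 38 replication genes grouped by function, in all cells (circles), in cells with a Mki67 or Top2a count (squares) and in cells without (triangles). The dotted line marks a 2-fold difference, and every symbol lies left of 0, from -4.05 for Hells to -0.03 for Tyms, both in cells without a marker count.

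All 10 licensing genes were at least 2-fold lower in collagen, with a median log2 ratio of -1.93. Among the subunits of the MCM helicase, Mcm5 was at 27.9 CPM (26.4 to 29.6) in collagen and 151 CPM (149 to 152) in Matrigel cells, a log2 ratio of -2.39 and the lowest of the licensing group. Mcm2 was at 19.8 CPM in collagen and 77.4 CPM in Matrigel, a log2 ratio of -1.91. The ratios of Mcm3, Mcm4, Mcm6 and Mcm7 lay between -2.12 for Mcm4 and -1.64 for Mcm7, so all 6 subunits measured were lower together. Cdc6, which helps to place the helicase on the origin, was at 3.40 CPM (2.85 to 3.99) in collagen and 19.3 CPM (18.8 to 19.8) in Matrigel, a log2 ratio of -2.21. Its partner Cdt1 was at 11.5 CPM in collagen and 54.0 CPM in Matrigel, a log2 ratio of -2.14. The origin recognition genes were the least different of the group: Orc1, its largest subunit, was at 1.60 CPM (1.24 to 2.03) in collagen and 6.14 CPM (5.86 to 6.43) in Matrigel, a log2 ratio of -1.46, and Orc6 had the same rounded ratio.

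Of the 5 firing genes, 4 were at least 2-fold lower, with a median of -1.33. Mcm10, which helps to activate the helicase, had the lowest ratio, -1.39, with 5.68 CPM (4.99 to 6.45) in collagen and 16.5 CPM (16.0 to 17.0) in Matrigel cells. Cdc45, a subunit of the active helicase, was at 7.92 CPM in collagen and 22.1 CPM in Matrigel, a log2 ratio of -1.37. The GINS subunits followed at -1.33 for Gins1 and -1.23 for Gins2. Gins3 was the exception, at 3.38 CPM (2.85 to 3.99) in collagen and 7.36 CPM (7.05 to 7.68) in Matrigel, a log2 ratio of -0.93.

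At the fork, 9 of 11 genes were at least 2-fold lower, with a median of -1.55. Rfc3, a subunit of the clamp loader, had the lowest ratio, -2.0, with 14.3 CPM (13.2 to 15.5) in collagen and 60.2 CPM (59.3 to 61.1) in Matrigel. Rfc5, a subunit of the same loader, had the ratio nearest 0 of the group, -0.77, with 21.1 CPM (19.7 to 22.5) in collagen and 36.7 CPM (36.0 to 37.4) in Matrigel. The remaining loader subunits Rfc4 and Rfc2 had ratios of -1.44 and -1.07, so the subunits of this complex did not share a common ratio. Lig1, the ligase that joins Okazaki fragments, was at 39.6 CPM in collagen and 132 CPM in Matrigel, a log2 ratio of -1.71. Pola1, the catalytic subunit of the priming polymerase, was at 16.2 CPM in collagen and 44.7 CPM in Matrigel, a log2 ratio of -1.41. Its primase partner Prim1 (-1.55), the catalytic subunits of the main polymerases, Pole (-1.61) and Pold1 (-1.58), and the flap nuclease gene Fen1 (-1.62) lay close together. Pcna, the sliding clamp, was at 166 CPM (163 to 170) in collagen and 311 CPM (309 to 313) in Matrigel, a log2 ratio of -0.90. Among nonzero Pcna values 87.7% were fractional, so its level is uncertain.

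Nucleotide supply had the smallest differences, with a median of -1.02 and 2 of 3 genes at least 2-fold lower. Rrm2, the small subunit of ribonucleotide reductase, was at 23.8 CPM (22.3 to 25.3) in collagen and 57.3 CPM (56.5 to 58.2) in Matrigel, a log2 ratio of -1.24. Rrm1, the large subunit, was at 32.9 CPM in collagen and 67.6 CPM in Matrigel, a log2 ratio of -1.02. Tyms, which makes thymidylate, was at 59.5 CPM (57.2 to 61.9) in collagen and 85.5 CPM (84.5 to 86.6) in Matrigel. Its log2 ratio of -0.52 was the nearest to 0 of all 38 genes.

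All 5 chromatin genes were at least 2-fold lower, with a median of -1.81. Uhrf1, which brings the maintenance DNA methyltransferase to newly copied DNA, was at 9.57 CPM (8.66 to 10.54) in collagen and 65.6 CPM (64.7 to 66.6) in Matrigel, a log2 ratio of -2.66. Hells, a chromatin remodeller, was at 33.2 CPM (31.5 to 35.0) in collagen and 149 CPM (148 to 150) in Matrigel, a log2 ratio of -2.13. Chaf1a and Chaf1b, subunits of the chaperone that deposits histones at the fork, had ratios of -1.80 and -1.81. Slbp, which binds the stem-loop of replication-dependent histone mRNAs, was at 36.0 CPM (34.2 to 37.9) in collagen and 90.6 CPM (89.5 to 91.7) in Matrigel, a log2 ratio of -1.31.

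The 4 checkpoint and repair genes were all at least 2-fold lower and had the lowest median, -2.25. Ung, which removes uracil from DNA, was at 8.93 CPM (8.06 to 9.88) in collagen and 65.1 CPM (64.2 to 66.1) in Matrigel. Its log2 ratio, -2.73, was the lowest of all 38 genes. Dtl, the substrate receptor of the ubiquitin ligase that destroys CDT1 in S phase, had a ratio of -2.41. Chek1, the checkpoint kinase, was at 5.55 CPM (4.86 to 6.30) in collagen and 26.8 CPM (26.2 to 27.4) in Matrigel, a log2 ratio of -2.09. Clspn, the adaptor through which CHEK1 is activated, was at 9.15 CPM (8.26 to 10.1) in collagen and 26.5 CPM (25.9 to 27.1) in Matrigel, a log2 ratio of -1.44.

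The same comparison was made in marker cells, those with at least 1 count of Mki67 or Top2a. Marker cells made up 195 of 336 collagen cells, or 58.0% (52.6 to 63.4%, exact Clopper-Pearson interval), and 1269 of 1599 Matrigel cells, or 79.4% (77.3 to 81.3%). Their median depth was 133535 counts in collagen and 188049 counts in Matrigel. Cells were then thinned at random to 77972 counts each. Shallower cells, 72 of collagen and 122 of Matrigel, did not enter, and the shares of marker cells were 59.1% in collagen and 74.0% in Matrigel. At 10 or more marker counts in the thinned cell, the shares were 25% (19.9 to 30.7%) in collagen and 23.2% (21.1 to 25.5%) in Matrigel, and their intervals overlapped. Both genes chose these cells, so their own levels are given as a description: Mki67 was at 104 CPM in collagen marker cells and 54.8 CPM in Matrigel marker cells, and Top2a at 53.0 CPM in collagen and 62.3 CPM in Matrigel.

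In marker cells, replication genes summed to 1102 CPM (1089 to 1114) in collagen and 2687 CPM (2680 to 2694) in Matrigel. Of the 38 genes, 30 were at least 2-fold lower in collagen, against 5.96% of 10103 genes tested, and none was at least 2-fold higher, against 7.17%. The median log2 ratio was -1.28, against 0.05 over all genes tested. All 38 ratios were below 0, against 4695 of the 10103 genes. All 10 licensing, all 5 chromatin and all 4 checkpoint genes kept a difference of at least 2-fold, as did 8 of 11 fork and 3 of 5 firing genes. Gins2, Rfc2, Rrm1 and Rrm2 were at least 2-fold lower over all cells but not in marker cells, where their ratios were -1.0, -0.79, -0.65 and -0.95. The order of functions among the 38 genes was that of all cells. Checkpoint and repair had the lowest median, -1.91, followed by licensing (-1.63), chromatin (-1.46), fork (-1.19), firing (-1.01) and nucleotide supply (-0.65). In cells without a marker count, chromatin (-2.62) came before licensing (-2.52). The other replication genes, described below, had another order. Ung was again lowest, with 11.1 CPM (9.89 to 12.4) in collagen and 68.8 CPM (67.7 to 69.8) in Matrigel marker cells, and Tyms was again nearest to 0, with 72.8 CPM (69.7 to 76.1) in collagen and 95 CPM (93.8 to 96.2) in Matrigel.

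In cells without a count of either marker, the summed level was 366 CPM (357 to 376) in collagen and 1293 CPM (1283 to 1303) in Matrigel. Here 33 of 38 genes were at least 2-fold lower in collagen, against 11.8% of 9938 genes tested, and the median was -2.07, against -0.11 over all genes tested. No replication gene was at least 2-fold higher, against 7.74%. Only 31 of the 38 genes reached a mean of 5 CPM in these cells, and the counts again take in all 38. Hells had the lowest ratio, -4.05, with 3.33 CPM (2.48 to 4.36) in collagen and 70.8 CPM (68.5 to 73.3) in Matrigel. Uhrf1 (-3.64), Mcm5 (-3.56), Dtl (-3.23) and Fen1 (-3.18) followed. Tyms was nearly level, with 36.7 CPM (33.7 to 39.8) in collagen and 37.5 CPM (35.8 to 39.3) in Matrigel, and so was Gins3, with 1.98 CPM (1.35 to 2.81) in collagen and 2.27 CPM (1.85 to 2.73) in Matrigel. Intervals of these last 2 genes overlapped between the cultures.

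The level of a gene over many cells joins the share of cells in which it was found with its level in those cells, and both were taken in thinned cells. All 38 genes were found in a smaller share of collagen marker cells than of Matrigel marker cells, and for all 38 the intervals of the shares did not overlap. The median share over genes was 37.8% of collagen marker cells and 78.6% of Matrigel marker cells. Within the marker cells that had a count of the gene, the mean level was lower in collagen for 34 of 38 genes, with a median ratio of collagen over Matrigel of 0.771. Neither count was taken over all genes, so no background share stands beside them. A single count in a thinned cell stands at 12.8 CPM, so the level in cells with a count has a floor for weakly expressed genes.

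**Figure D2:**
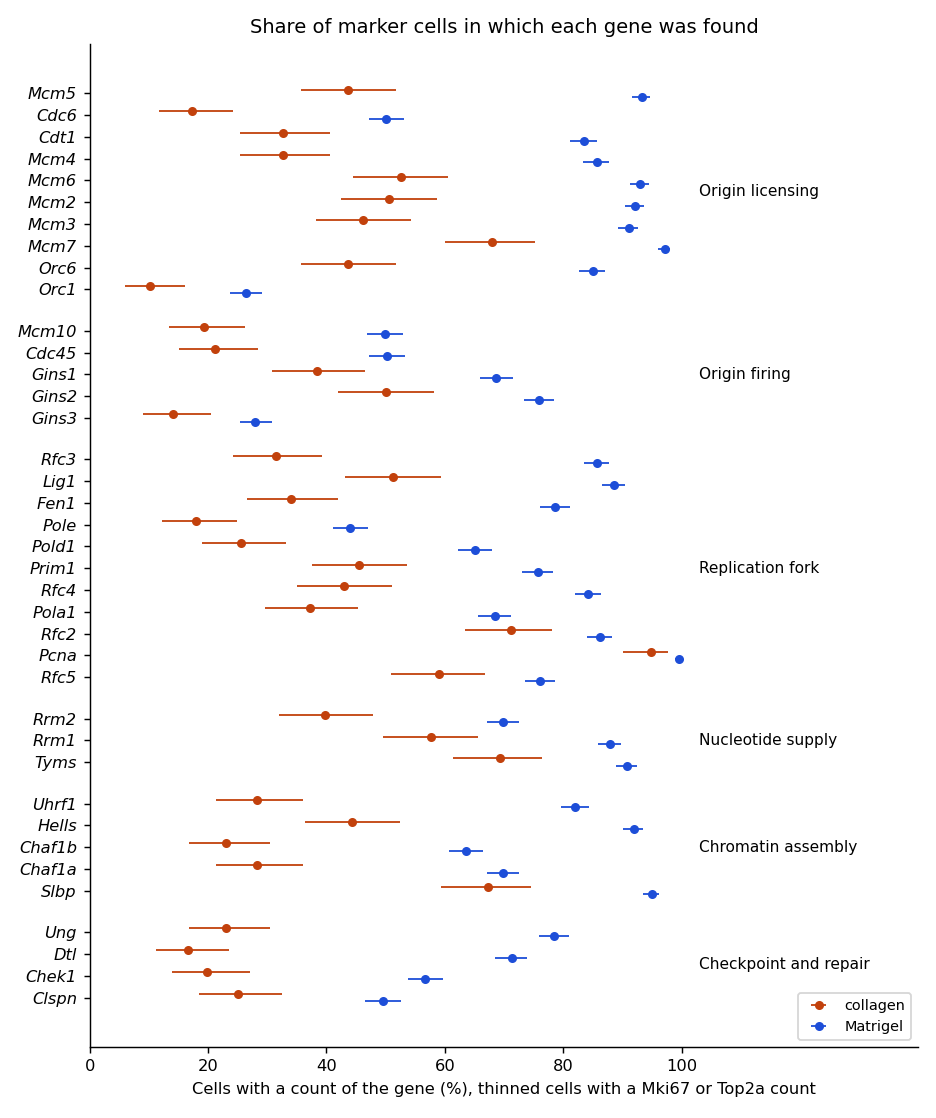
Share of thinned cells with a Mki67 or Top2a count in which each replication gene was found, for 156 collagen and 1093 Matrigel cells, with exact 95% binomial intervals. The collagen share lies left of the Matrigel share for every gene, from 10.3% in collagen and 26.3% in Matrigel for Orc1 to 94.9% in collagen and 99.5% in Matrigel for Pcna.

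Dtl had one of the widest gaps in share, being found in 16.7% (11.2 to 23.5%) of collagen marker cells and 71.3% (68.5 to 73.9%) of Matrigel marker cells, while its level in cells with a count was 58.7 CPM in collagen and 57.0 CPM in Matrigel. Mcm10, Cdc45 and Gins3, all firing genes, were the others whose level in cells with a count was not lower in collagen. Mcm5 differed in both respects: it was found in 43.6% of collagen and 93.2% of Matrigel marker cells, at 82.4 CPM in those collagen cells and 175 CPM in those Matrigel cells. Pcna was found in nearly every cell of both cultures and differed in level, at 173 CPM in collagen and 333 CPM in Matrigel marker cells with a count. Without thinning and over all cells, Mcm5 was found in 34.5% of collagen and 87.9% of Matrigel cells, Ung in 22.0% of collagen and 81.0% of Matrigel cells, and Tyms in 57.7% of collagen and 86.9% of Matrigel cells.

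Shares were also read in cells expected to hold little replication RNA, those with at least 10 counts of Alpi, the enterocyte gene for intestinal alkaline phosphatase, and no marker count. Among these 25 collagen and 50 Matrigel cells, the median share over genes was 10% in collagen and 36% in Matrigel. All of them had been thinned to the same depth as the marker cells. Every gene's share in collagen marker cells was above its share in these collagen cells, though for Tyms the values were 69.2% and 68% and for Pcna 94.9% and 92%, so these 2 shares did not set the marker cells apart. In Matrigel, the share in marker cells was at or below that in these cells for 1 gene, Pcna, at 99.5% and 100%. For 12 of 38 genes, the share in collagen marker cells was below the share in these Matrigel cells without a marker count. Ung was one of them, at 23.1% of collagen marker cells and 56% of Matrigel Alpi cells. These counts of genes against the Alpi cells were not taken over all genes, so no background share stands beside them. Of the Matrigel Alpi cells, 13 of 50, or 26% (14.6 to 40.3%), showed at least 19 of the 38 genes, against 0 of 25 in collagen. The Matrigel Alpi cells were thus not all low in replication genes.

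Counting how many of the 38 genes each thinned cell showed gave a value per cell. Collagen marker cells showed a median of 12 genes (quartiles 8 and 21.25) and Matrigel marker cells a median of 30 genes (quartiles 23 and 35). Cells without a marker count showed a median of 7 genes in collagen and 23 in Matrigel. The Alpi cells without a marker count showed 5 genes in collagen and 9 in Matrigel. A typical Matrigel cell with no marker count thus showed more replication genes than a typical collagen marker cell.

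**Figure D3:**
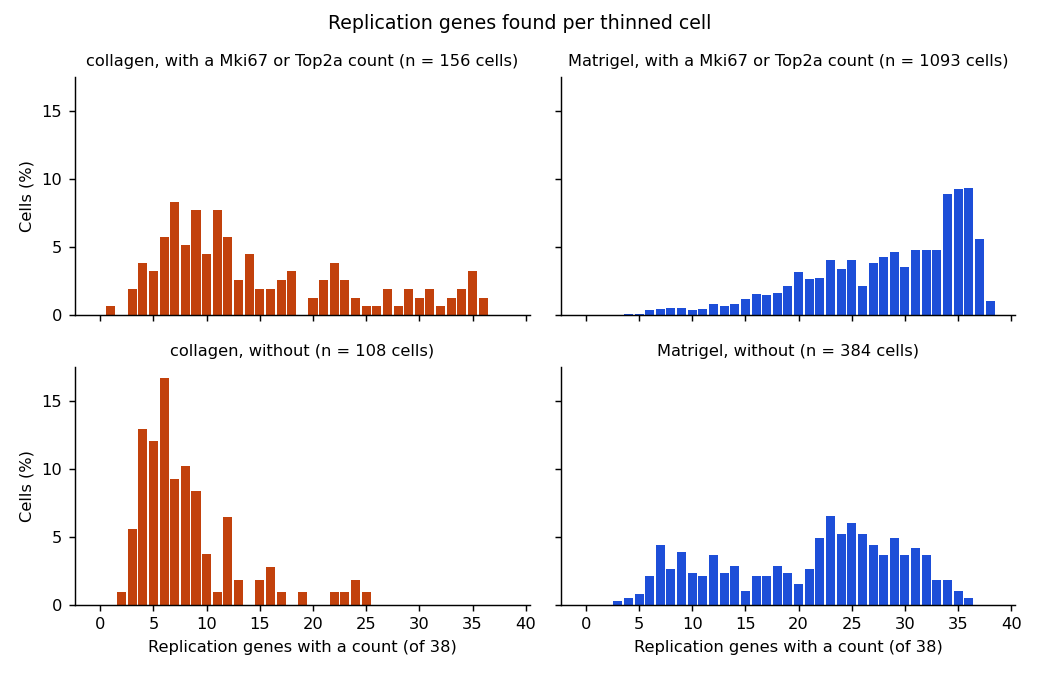
Share of thinned cells showing each number of the 38 replication genes, in collagen (left) and Matrigel (right), for cells with a Mki67 or Top2a count (top) and without (bottom). Collagen marker cells centre on a median of 12 genes with a tail that reaches 36, and Matrigel marker cells on a median of 30.

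Cells with a count of at least 19 of the 38 genes made up 45 of 156 collagen marker cells, or 28.8% (21.9 to 36.6%), and 972 of 1093 Matrigel marker cells, or 88.9% (86.9 to 90.7%). Over all thinned cells the shares were 19.3% (14.7 to 24.6%) in collagen and 82.5% (80.4 to 84.4%) in Matrigel. The limit of 19 cuts through a range, with 17 collagen and 165 Matrigel cells within 2 genes of it. Among cells without a marker count, 6 of 108 collagen cells, or 5.56% (2.07 to 11.7%), and 246 of 384 Matrigel cells, or 64.1% (59.0 to 68.9%), reached the limit. Collagen cells with nearly the full set did occur: the highest showed 36 genes, and the highest Matrigel cell showed all 38.

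The number of replication genes was higher at higher marker counts in both cultures, and it was lower in collagen at each step. With 0 marker counts in the thinned cell the medians were 7 genes in collagen and 23 in Matrigel, and with 1 count 8 in collagen and 27 in Matrigel. With 2 to 9 counts they were 11 in collagen and 29 in Matrigel, and with 10 or more counts 16.5 in collagen and 34 in Matrigel. At 10 or more counts, 42.4% (30.3 to 55.2%) of 66 collagen cells and 94.5% (91.5 to 96.6%) of 343 Matrigel cells showed at least 19 genes. The median marker count in that bin was 16 in collagen and 17 in Matrigel. This count sums 2 genes whose proportions differed between the cultures. Over all marker cells, Mki67 was at 104 CPM in collagen and 54.8 CPM in Matrigel. Top2a was at 53.0 CPM in collagen and 62.3 CPM in Matrigel. A similar sum therefore does not match the cells for either gene.

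**Figure D4:**
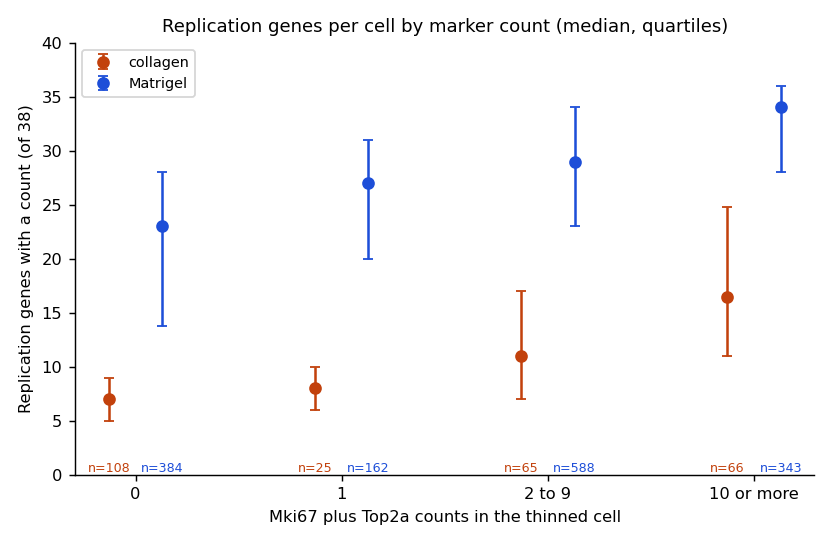
Median number of the 38 replication genes found per thinned cell, with quartiles as bars, by the summed Mki67 and Top2a counts of the cell, for collagen and Matrigel. In the highest bin the medians are 16.5 genes in collagen and 34 in Matrigel, and the collagen upper quartile of 24.75 lies below the Matrigel lower quartile of 28.

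The number of genes also varied with which marker a cell carried. Cells with both markers showed a median of 17 genes in collagen and 34 in Matrigel. Cells with Top2a and no Mki67 count showed 8 genes in 17 collagen cells and 32 in 222 Matrigel cells. Cells with Mki67 and no Top2a count showed 9 genes in 66 collagen cells and 25 in 387 Matrigel cells.

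The cells were then split by genes that differed strongly between the cultures, each a description chosen with earlier results known. Lgr5, the crypt stem cell receptor, stood at 33.0 CPM in collagen and 134 CPM in Matrigel cells. Cells with an Lgr5 count showed a median of 9 replication genes in collagen (117 cells) and 28 in Matrigel (1352 cells). Cells without it showed a median of 9 in collagen (147 cells) and 15 in Matrigel (125 cells). Within collagen, cells with and without Lgr5 thus had the same median, whereas in Matrigel cells without Lgr5 had the lower one.

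Ly6a, which encodes the surface protein Sca-1, stood at 232 CPM in collagen and 4.47 CPM in Matrigel cells. In collagen, the 121 cells with a Ly6a count showed a median of 10 replication genes and the 143 cells without it showed 9. Muc3, a membrane mucin, stood at 138 CPM in collagen and 3.38 CPM in Matrigel. Collagen cells with a Muc3 count showed a median of 8 genes and those without it 12, and Matrigel cells with and without it showed 27 and 28. Cdkn1a, the cyclin-dependent kinase inhibitor p21, stood at 314 CPM in collagen and 78.3 CPM in Matrigel. Collagen cells with a Cdkn1a count showed a median of 9 genes and the 25 without it 11, while Matrigel cells showed 28 with and without it. In each of these splits, the collagen median stayed below the Matrigel median on both sides.

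Within each culture the replication genes varied together from cell to cell. Across 264 thinned collagen cells and across 1477 thinned Matrigel cells, all 703 pairs of genes had a positive Pearson correlation of log levels, with a median r of 0.41 in collagen and 0.38 in Matrigel. These values describe cells that share a library and a fixed depth, and cells are not replicates. Pairs of other genes were not correlated, so these values have no background beside them. Pairs of the same function had a median of 0.42 in collagen and 0.40 in Matrigel, and pairs of different functions 0.41 in collagen and 0.38 in Matrigel. Mcm5 followed the mean of the other replication genes most closely in collagen (r = 0.88) and was at 0.83 in Matrigel. Pcna was at 0.55 in collagen and 0.83 in Matrigel, and Orc1, with few counts, was lowest in both, at 0.28 in collagen and 0.25 in Matrigel.

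Outside the replication lists, the 10 genes most like the members' mean over thinned Matrigel cells, among 11935 genes found in at least 10% of them, were Tuba1b, Pclaf, Slfn9, Nup85, Cdk1, Stmn1, Ranbp1, Dek, Top2a and Tubb5. Their r lay between 0.60 and 0.67 in Matrigel, and between 0.54 and 0.75 in collagen. All 10 were lower in collagen, from -0.58 for Tubb5 to -2.32 for Slfn9 on the log2 scale. Pclaf, which encodes a PCNA-binding protein, was at 90.5 CPM in collagen and 182 CPM in Matrigel. Most nonzero values of Tuba1b (98.9%), Ranbp1 (93.2%) and Stmn1 (86.1%) were fractional, and their levels are uncertain. Mki67 was less like the members, with an r of 0.32 in collagen and 0.18 in Matrigel, at rank 687.

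The wider pathway was taken from a list of 90 other replication genes. Over all cells, 54 of them were at least 2-fold lower in collagen against 7.77% of all genes tested, and 1 was higher by 2-fold or more, against 7.7%. Their median was -1.12. In marker cells 33 were lower, against 5.96%, and 1 higher, against 7.17%, with a median of -0.88. Cdca7, which works with HELLS in chromatin remodelling, had the lowest ratio, -3.10, with 23.6 CPM in collagen and 210 CPM in Matrigel, and its relative Cdca7l had -2.24. Timeless, a fork protection gene (-2.21), Rpa2, a subunit of the single-strand binding protein (-2.17), and the histone chaperone gene Asf1a (-2.09) were next.

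**Figure D5:**
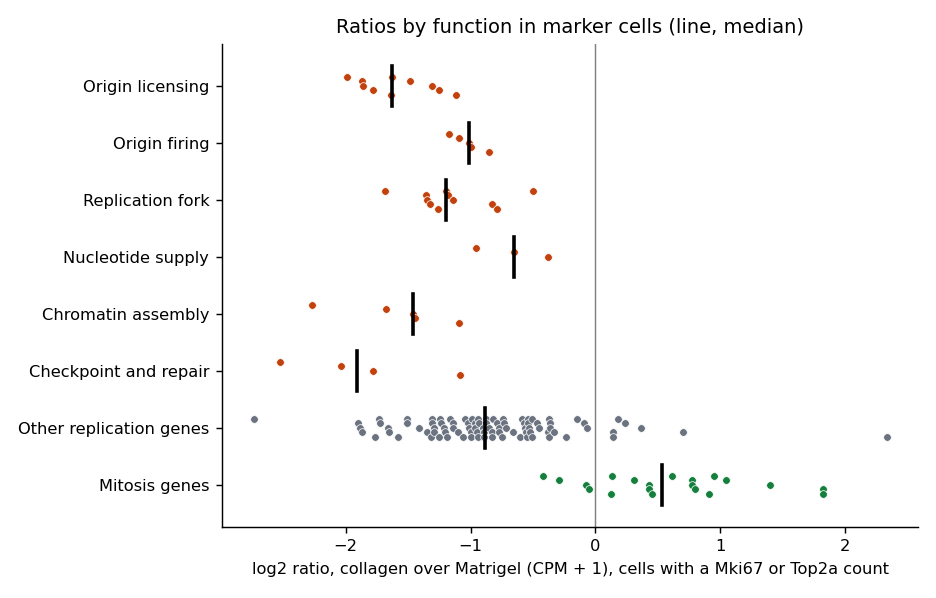
Log2 ratio of collagen over Matrigel CPM, with 1 CPM added, in cells with a Mki67 or Top2a count, with a point per gene and a line at each median, for the 6 functions of the replication list, the 90 other replication genes and 20 mitosis genes. The medians of the replication functions lie between -1.91 and -0.65, and that of the mitosis genes at 0.53.

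Among regulators of S phase entry, Ccne1, the gene for cyclin E1, was at 3.57 CPM in collagen and 14.3 CPM in Matrigel, a log2 ratio of -1.74. Its kinase Cdk2 had a ratio of -1.52, and the transcription factor gene E2f1 one of -1.37. Rb1, which restrains E2F, was higher in collagen by 0.69, under 2-fold, and 34.3% of its nonzero values were fractional. It was the only 1 of the 12 regulators listed with a ratio above 0. Rbl1 (-1.31), E2f7 (-1.10) and E2f8 (-1.18) of the same list were lower. In nucleotide supply, Shmt1, which feeds the folate cycle, had -2.0, Dctd -1.55 and Dtymk, which makes dTDP, -1.36. In the licensing group as listed here, Mcm8 (-1.21), Mcmbp (-1.07) and Gmnn, the gene for the CDT1 inhibitor geminin (-1.09), differed less than the subunits of the MCM helicase. Of the firing genes, Topbp1 had -1.53, Mtbp -1.06 and Gins4 -0.94. In the checkpoint and repair group as listed here, the nuclease gene Exo1 had -1.87, Atad2 -1.66 and Brca2 -1.63. Against 4957 of the 10088 genes tested, 6 of the 90 genes had a ratio above 0 over all cells. Besides Rb1 these were the origin recognition subunits Orc3 (0.27) and Orc4 (0.17), the ribonucleotide reductase subunit Rrm2b (0.14), the histone chaperone gene Nap1l1 (0.08) and Pold4. Pold4, the smallest subunit of polymerase delta, was at 117 CPM in collagen and 16.7 CPM in Matrigel, a log2 ratio of 2.74. Among nonzero values, 75.5% of Pold4, 99.95% of Rrm2b and 56.5% of Nap1l1 were fractional, so the levels of these genes are uncertain.

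A list of 20 mitosis genes gave other counts. Over all cells none was at least 2-fold lower in collagen, against 7.77% of all genes tested, and 3 were higher by 2-fold or more, against 7.7%. Their median was 0.17. In marker cells none was lower, against 5.96%, and 4 were higher, against 7.17%, with a median of 0.53 and a summed level of 987 CPM (975 to 999) in collagen and 629 CPM (626 to 632) in Matrigel. In cells without a marker count the direction was the opposite: 6 of the 20 were at least 2-fold lower in collagen, against 11.8% of genes tested. None was higher by that much, against 7.74%. Only 6 of the 20 mitosis genes reached a mean of 5 CPM in these cells, as all genes tested did, so these counts include genes near the floor. There the median was -0.58 and the summed level 87.2 CPM (82.7 to 92.0) in collagen and 154 CPM (150.4 to 157.5) in Matrigel. Hmmr, a spindle gene, was at 52.5 CPM in collagen and 14.1 CPM in Matrigel marker cells, and Cenpf, a kinetochore gene, at 69.1 CPM in collagen and 18.8 CPM in Matrigel. Cdk1, the mitotic kinase, was at 39.5 CPM in collagen and 53.2 CPM in Matrigel marker cells. The marker cells were chosen by genes that peak in the same phases as these, and the other cells by the lack of them. The part of the higher Mki67 level of collagen marker cells, or of cell depth, in the replication gene difference was not tested.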

How the data were processed

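The authors deposited an expression table that holds an estimated count per gene and cell, named so because only 75.6% of values above 0 were whole within 1e-06. The sources used here do not say how they became fractional. Capture was on BD Rhapsody beads and amplification by TAS-Seq, followed by Illumina sequencing, per the labels. The submitters' processing notes name cutadapt 4.1, STARsolo 2.7.10a, R 4.2.1 and the GRCm39 build, with no role or order. The authors deposited a count of each of the 2 hashtags for the same 2090 cells, and the table names each cell for a culture or as a doublet.

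Cells named as doublets (139) were left out of all comparisons, and no doublet caller was run. Cells with under 500 detected genes or over 30% mitochondrial counts were removed, which took 16 Matrigel and no collagen cells. Median mitochondrial shares were 3.43% in collagen and 4.63% in Matrigel. Total counts were 42540314 over collagen and 285201649 over Matrigel cells. Counts were summed per culture and scaled to 1000000. Ratios are log2((collagen CPM + 1)/(Matrigel CPM + 1)), called at 2-fold. Intervals are exact Poisson for sums and exact Clopper-Pearson for shares. Reads were not shown to be independent molecules. With 1 suspension per culture there was no test. Thinning rounded the counts to whole numbers and drew 77972 per cell, the 10th percentile over kept cells, without replacement. The ratio step was tested on simulated data. Python 3.11.15, numpy 2.4.6, scipy 1.17.1 and matplotlib 3.10.9 were used.

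Every member is described. Levels and ratios are given for the lowest and highest ratio of each function and for 12 genes listed by name. Of the other replication genes, up to 3 per function with the largest absolute ratio and a mean of at least 5 CPM are named, most with the ratio only. Rb1, Rbl1, E2f7, E2f8, Orc3, Orc4, Rrm2b, Nap1l1 and the mitosis genes named were chosen after their values were seen, as was the Alpi limit. The members and lists were chosen with earlier results of these data known. Promoter windows are RefSeq's on GRCm38.p6, another build than the counts, and were joined by gene symbol only.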

Additional observations from a re-analysis of the deposited data

How the results depend on the processing

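All 38 ratios stayed below 0 under median-of-ratios scaling, the mean over cells, thinning and cultures assigned by a hashtag share of 60% or 95%. Across the alternatives run, the number of genes at least 2-fold lower ranged from 25 to 35 in all cells and from 22 to 33 in marker cells, where the lowest counts came with a mean of at least 20 CPM, which leaves fewer genes, and, in marker cells, also with stricter marker limits. The median ratio in all cells was -1.35 with 5 CPM added and -1.45 with a hashtag share of 60%, which placed 49 doublet-named cells in collagen and 54 in Matrigel. In marker cells it was -1.07 with 5 CPM added, -1.09 with at least 10 marker counts and -1.11 with both markers. The share of marker cells was 49.1% in collagen and 71.9% in Matrigel with at least 2 counts, 30.1% in collagen and 42.6% in Matrigel with at least 10, 26.5% in collagen and 41.5% in Matrigel with both markers, and 74.0% in Matrigel after thinning. The cause of these shifts was not tested. The median number of genes per thinned marker cell ranged from 8 to 13 in collagen and from 26 to 31 in Matrigel, the lowest values needing 2 counts per gene. Leaving out Pcna, an alternative added after seeing the data, gave 34 and 30 genes in all and marker cells. No paired analysis was possible because each culture was 1 suspension with no replicate number. Depth limits Orc1, Cdc6, Gins3 and Pole, at under 5 CPM in collagen.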

Other observations

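The 120 thinned cells that the deposited table names as doublets showed a median of 24.5 of the 38 replication genes (quartiles 17 and 32.25). Of these, 85, or 70.8% (61.8 to 78.8%, exact Clopper-Pearson interval), showed at least 19 genes. Doublet-named cells with a Mki67 or Top2a count showed a median of 27 genes, and those without showed 18. These values lay between those of collagen and Matrigel cells.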
